A study of Mus musculus with 23 samples.

Results

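Of the 24704 named genes measured by these arrays, 57 encode guidance cues or their receptors. They are the ephrins and Eph receptors, the semaphorins of classes 4 to 7, the plexins, the Slits and Robos, the netrins and the Unc5 receptors. The genes were taken by gene symbol, and Efnb2 and Plxnd1, which have symbols of the same pattern, were left out of the set and are described beside it. Ephb2 was not analysed here. The cells were primary mouse aorta endothelial cells from a commercial supplier, which line the inside of the aorta, kept for 48 h in medium in which 10% mouse plasma stood in for serum. The plasma donors were ApoE-Stab2-KO mice (n = 6 arrays), ApoE-Stab1-KO mice (n = 6), ApoE-KO mice (n = 5) or wildtype mice (n = 6), with C57BL/6J given as the strain on every array. The ApoE-Stab2-KO and ApoE-Stab1-KO donors lacked apolipoprotein E, as the ApoE-KO donors did, and in addition the scavenger receptor Stabilin-2 or Stabilin-1. All knockout donors had eaten Western diet for 8 weeks. Neither a diet of the wildtype donors nor the age of any donor is given, so in each comparison with wildtype plasma genotype and diet cannot be told apart. The genotypes are those of the donors, not of the cells, and the labels do not say whether the arrays of a group came from separate cultures or donors, and the p-values therefore cover only the variation among the arrays at hand, which could be technical.

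Guidance cues are membrane-bound or secreted proteins that steer growing axons and, in the vessel wall, the sprouting, repulsion and sorting of endothelial cells. Ephrins bind Eph receptor kinases on a neighbouring cell, and both partners then signal. Semaphorins act through plexins, Slits through Robo receptors, and netrins through Unc5 receptors and DCC. In endothelium ephrin-A1 with EphA2 is known for its response to inflammatory cytokines, and ephrin-B2 with EphB4 for separating arterial from venous cells.

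The levels are log2 values from RMA, an array method that corrects background, scales all arrays to 1 distribution and gives 1 value per gene. The table holds no call of presence, so the 1073 olfactory receptor genes, taken as mostly silent in endothelial cells, served as a guide. The 95th percentile of their mean levels was 4.09, and 31 of the 57 guidance genes lay above it while 26 lay at or under it and are called dim here. Arrays correlated with each other at r = 0.992 to 0.997 across all genes, and no 2 were identical. ApoE-KO replicate 1 was stored with finer decimals than the other arrays (4.21% of its values on a grid that held 100% of the values of each other array). Of 12 endothelial markers, all 12 were above the olfactory receptor percentile, as were 3 of 6 smooth muscle, 2 of 6 fibroblast, 3 of 4 lymphatic endothelial, 1 of 4 macrophage and 2 of 6 neural markers. Among these, Myh11 (4.07), Dcn (3.01), Prox1 (3.27) and Ptprc (2.98) were dim, against 12.8 for the endothelial cadherin gene Cdh5. Other markers of the same lists were bright, such as Smtn (10.3) of smooth muscle and Pdgfra (6.11) of fibroblasts. So were Lyve1 (12.7) and Flt4 (9.64) of lymphatic endothelium and Cd68 (11.2) of macrophages. Whether other cell types were present was not tested.

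**Figure D1:**
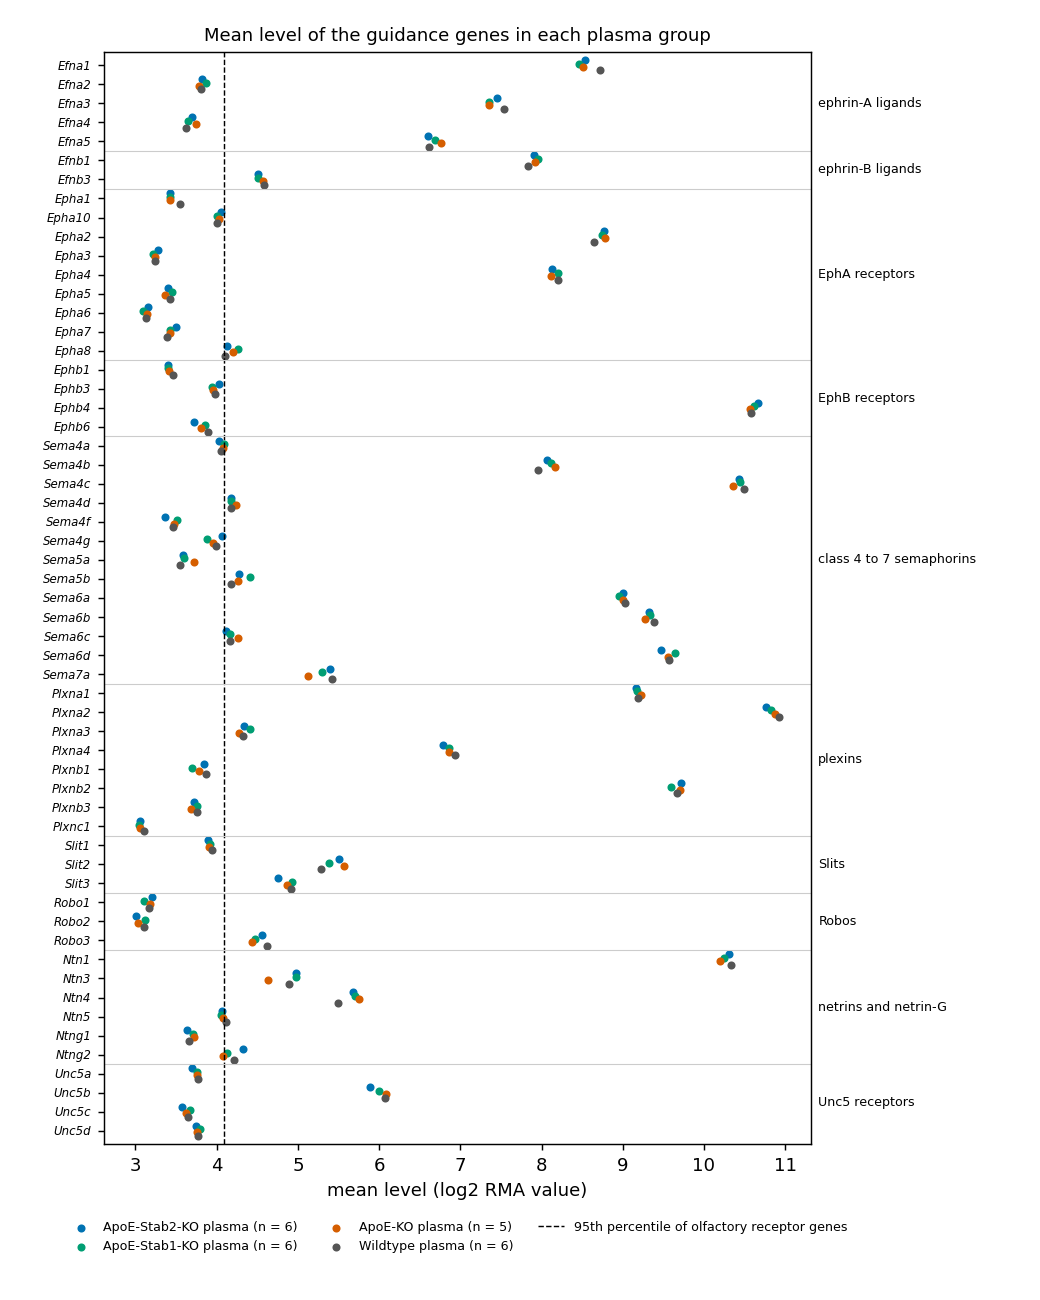
Mean level (log2 RMA value, horizontal axis) of each of the 57 guidance genes in the 4 plasma groups, with genes grouped by family. The dashed line is the 95th percentile of olfactory receptor genes (4.09), and 26 genes lie at or under it. The group means of Efna1 span 0.26, with the highest for wildtype plasma (8.72), and those of Ntn3 (0.35), Sema7a (0.29), Slit2 (0.28) and Ntn4 (0.26) span as much or more. Levels of different genes come from different probes and are not compared with each other.

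Across the 4 plasma groups only Efna1, the gene of ephrin-A1, passed the test. In the moderated F-test of limma over the 4 groups, 1 of the 57 guidance genes had a Benjamini-Hochberg adjusted p under 0.05, the threshold used throughout, against 0.546% of all genes. At an unadjusted p under 0.05 there were 8 of 57 (14%), against 11.9% of all genes. In the comparison of the mean of the 3 knockout plasmas with wildtype plasma, 1 guidance gene passed and fell and 56 did not pass, where 0.777% of all genes passed and 0.291% passed and fell. Unadjusted, 11 of 57 (19.3%) were under 0.05, against 10.9% of all genes. The median log2 difference of the 57 genes in that comparison was -0.02 and that of all genes was 0.00. Differences of the guidance genes lay between -0.22 (Efna1) and 0.22 (Ntn4), and the 95% interval that reached farthest from 0 ended at 0.43 (Ntn4), so that larger differences of any of the 57 genes lie outside the intervals of this comparison.

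Efna1 encodes a ligand tied to the cell surface by a lipid anchor, which binds EphA2 with preference and was first found as a gene induced by tumour necrosis factor in human endothelial cells. Efna1 had a lowest level of 8.40, a median of 8.54 and a highest of 8.62 with ApoE-Stab2-KO plasma. With ApoE-Stab1-KO plasma its levels were 8.25, 8.47 and 8.61 in the same order. With ApoE-KO plasma the 5 arrays gave 8.51, 8.44, 8.58, 8.46 and 8.54. With wildtype plasma the lowest level was 8.64, the median 8.73 and the highest 8.80. All 17 arrays with knockout plasma thus lay below all 6 arrays with wildtype plasma. Efna1 was the 1 gene of the set whose knockout arrays lay all below or all above the wildtype arrays, against 0.17% of all genes. Efnb2, which is outside the set, was separated in the same way, as given below. The mean of Efna1 was 8.53 ± 0.07 with ApoE-Stab2-KO plasma (SD, n = 6) and 8.46 ± 0.12 with ApoE-Stab1-KO plasma (n = 6). It was 8.50 ± 0.06 with ApoE-KO plasma (n = 5) and 8.72 ± 0.07 with wildtype plasma (n = 6).

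Efna1 fell over the 3 knockout plasmas by 0.22 ± 0.04 on the log2 scale (SE), which is 0.857-fold of the level with wildtype plasma (limma adjusted p = 0.00821, 95% interval -0.31 to -0.14). Taken singly, it fell with ApoE-Stab1-KO plasma relative to wildtype plasma (-0.26 ± 0.05, adjusted p = 0.0175), while ApoE-KO minus wildtype (-0.22 ± 0.05, adjusted p = 0.0746) and ApoE-Stab2-KO minus wildtype (-0.19 ± 0.05, adjusted p = 0.173) did not pass. These 3 comparisons share the wildtype arrays. Among knockout plasmas the Efna1 difference was 0.07 (95% interval -0.03 to 0.18) for ApoE-Stab2-KO minus ApoE-Stab1-KO, 0.02 (-0.09 to 0.13) for ApoE-Stab2-KO minus ApoE-KO and -0.05 (-0.16 to 0.06) for ApoE-Stab1-KO minus ApoE-KO, none past the threshold. Because the cells were measured in bulk, fewer cells with the transcript and less of it per cell cannot be told apart. The call over the 3 knockout plasmas held with each of the 23 arrays left out in turn (adjusted p 0.00289 to 0.0373), ApoE-KO replicate 1 included (0.0122). The call with ApoE-Stab1-KO plasma ended without wildtype replicate 1 (adjusted p = 0.0513) and when only the arrays of both groups were fitted (adjusted p = 0.142). The F-test call of Efna1 (adjusted p = 0.0399) ended without any 1 of 17 arrays, namely ApoE-Stab2-KO replicates 1, 2, 3 and 6, ApoE-Stab1-KO replicates 2, 4, 5 and 6, ApoE-KO replicates 1, 2 and 4 and wildtype replicates 1 to 6 (adjusted p up to 0.112).

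Among the markers of cell type, the endothelial sialomucin gene Emcn was also lower with the 3 knockout plasmas than with wildtype plasma (-0.13 ± 0.03, adjusted p = 0.0452), and its part in the Efna1 result was not tested. The tight junction gene Cldn5 had a difference of -0.17 in that comparison (adjusted p = 0.107) and fell with ApoE-KO plasma relative to wildtype plasma (-0.27 ± 0.06, adjusted p = 0.0459). Cldn5 also passed the F-test over the 4 groups (adjusted p = 0.0139). Its difference was -0.25 ± 0.06 for ApoE-Stab1-KO minus wildtype (adjusted p = 0.0508) and 0.01 ± 0.06 for ApoE-Stab2-KO minus wildtype (adjusted p = 0.986). The part of Cldn5 in the Efna1 result was not tested. Emcn and Cldn5 were the 2 endothelial markers past the threshold in any of the 8 tests. The level averaged over the 12 endothelial markers was 11.02 ± 0.04 with ApoE-Stab2-KO plasma, 10.98 ± 0.08 with ApoE-Stab1-KO plasma, 10.94 ± 0.08 with ApoE-KO plasma and 11.01 ± 0.02 with wildtype plasma (SD). The arrays spanned 10.98 to 11.06, 10.83 to 11.04 and 10.83 to 11.03 with those knockout plasmas and 10.99 to 11.04 with wildtype plasma, so that each knockout group overlapped wildtype. The level averaged over the 6 fibroblast markers, of which 2 lay above the olfactory receptor percentile (Pdgfra and Col1a1), was 4.09 to 4.23 with ApoE-Stab2-KO plasma, 4.16 to 4.30 with ApoE-Stab1-KO plasma and 4.16 to 4.21 with ApoE-KO plasma, against 4.09 to 4.15 with wildtype plasma. All arrays with ApoE-Stab1-KO or ApoE-KO plasma thus lay above all wildtype arrays in this average, while those with ApoE-Stab2-KO plasma overlapped them, and its part in the Efna1 result was not tested. The averages of the smooth muscle, lymphatic, macrophage and neural markers overlapped wildtype in each knockout group. No single marker of smooth muscle, fibroblast, lymphatic, macrophage or neural cells passed in any of the 8 tests.

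Efna1 has 2 annotated starts in RefSeq on the minus strand of mouse chromosome 3 (GRCm38.p6), and the 250 bases before each are shown because this is the gene on which the result turns. Capitals mark the GC box GGGCGG or its reverse complement, the site of the SP1 family, searched on both strands. The upstream window, chr3:89280952-89281201, holds 1 match and the downstream window, chr3:89279646-89279895, holds 2, and 32.7% of the 32851 windows of this length in RefSeq hold at least 1. These arrays do not measure binding, and the match is a description.
Efna1, upstream start: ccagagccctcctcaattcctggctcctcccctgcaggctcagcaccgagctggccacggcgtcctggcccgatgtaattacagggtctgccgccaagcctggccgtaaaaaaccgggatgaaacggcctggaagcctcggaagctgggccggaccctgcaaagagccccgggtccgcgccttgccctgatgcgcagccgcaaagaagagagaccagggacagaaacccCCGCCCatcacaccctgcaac
Efna1, downstream start: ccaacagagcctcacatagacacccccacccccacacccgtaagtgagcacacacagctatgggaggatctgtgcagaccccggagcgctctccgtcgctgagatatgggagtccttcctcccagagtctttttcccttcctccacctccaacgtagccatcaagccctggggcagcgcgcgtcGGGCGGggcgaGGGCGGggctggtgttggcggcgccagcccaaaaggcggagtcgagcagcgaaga

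Efna3 and Efna4 are the next protein-coding genes measured beside Efna1 in the GRCm38.p6 annotation, in the order Efna1, Efna3, Efna4. Efna3 averaged 7.45 ± 0.15 with ApoE-Stab2-KO plasma, 7.35 ± 0.18 with ApoE-Stab1-KO plasma, 7.35 ± 0.09 with ApoE-KO plasma and 7.54 ± 0.14 with wildtype plasma (SD). Its difference over the 3 knockout plasmas had the sign of that of Efna1 and did not pass (-0.16 ± 0.07, unadjusted p = 0.0254, adjusted p = 0.373). Efna4 was dim and had a difference of the opposite sign (0.08 ± 0.06, adjusted p = 0.72). Efna5 had a level of 6.60 ± 0.11 with ApoE-Stab2-KO plasma, 6.68 ± 0.16 with ApoE-Stab1-KO plasma, 6.76 ± 0.10 with ApoE-KO plasma and 6.61 ± 0.09 with wildtype plasma, with no call. Efna2 was dim, between 3.78 and 3.87 in all groups. Of the transmembrane ephrins, Efnb1 had a level of 7.91 ± 0.11 with ApoE-Stab2-KO plasma, 7.96 ± 0.18 with ApoE-Stab1-KO plasma, 7.92 ± 0.08 with ApoE-KO plasma and 7.83 ± 0.12 with wildtype plasma, and its largest difference, ApoE-Stab1-KO minus wildtype, did not pass (0.13 ± 0.07, adjusted p = 0.52). Efnb3 stayed between 4.51 and 4.59.

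The Eph receptors, which are tyrosine kinases, had no call in any test. Epha2, the main receptor of ephrin-A1, had a lowest level of 8.70, a median of 8.77 and a highest of 8.83 with ApoE-Stab2-KO plasma. The values in that order were 8.62, 8.74 and 8.91 with ApoE-Stab1-KO plasma and 8.69, 8.75 and 8.91 with ApoE-KO plasma, against 8.50, 8.63 and 8.80 with wildtype plasma. The groups overlapped, and the Epha2 difference over the 3 knockout plasmas was 0.12 ± 0.05, of the opposite sign to that of its ligand and not past the threshold (unadjusted p = 0.0147, adjusted p = 0.303). Epha2 and Sema5a, here and below, were picked out after their values were seen.

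Epha1, a dim gene, was the EphA receptor with the smallest F-test p. It averaged 3.42 ± 0.05 with ApoE-Stab2-KO plasma, 3.43 ± 0.06 with ApoE-Stab1-KO plasma, 3.43 ± 0.04 with ApoE-KO plasma and 3.55 ± 0.11 with wildtype plasma. The difference over the 3 knockout plasmas was -0.12 ± 0.04 (adjusted p = 0.167), and wildtype arrays from 3.42 to 3.69 overlapped each knockout group. Epha4, which binds ephrins of both classes, lay between 8.12 and 8.20 in all group means. Epha8 had group means of 4.10 to 4.26, and Epha3, Epha5, Epha6, Epha7 and Epha10 were dim.

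Ephb4, the receptor of ephrin-B2 and a gene of venous endothelium, was the 1 EphB receptor gene of 4 above the olfactory receptor percentile. It averaged 10.67 ± 0.04 with ApoE-Stab2-KO plasma, 10.61 ± 0.10 with ApoE-Stab1-KO plasma, 10.57 ± 0.05 with ApoE-KO plasma and 10.58 ± 0.08 with wildtype plasma. Its difference over the 3 knockout plasmas was 0.04 (95% interval -0.04 to 0.12). Ephb6, whose product lacks kinase activity, had a difference of -0.17 ± 0.06 for ApoE-Stab2-KO minus wildtype (adjusted p = 0.445), from levels of 3.58 to 3.89 with ApoE-Stab2-KO plasma and 3.77 to 4.07 with wildtype plasma.

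Efnb2, the ephrin-B2 gene, and Plxnd1, the receptor of class 3 semaphorin E in vessels, are the 2 genes of the pattern outside the set. Efnb2 averaged 9.54 ± 0.06 with ApoE-Stab2-KO plasma, 9.52 ± 0.10 with ApoE-Stab1-KO plasma, 9.58 ± 0.06 with ApoE-KO plasma and 9.73 ± 0.03 with wildtype plasma. Its arrays spanned 9.44 to 9.58, 9.34 to 9.63 and 9.53 to 9.68 with those knockout plasmas and 9.70 to 9.78 with wildtype plasma. All Efnb2 arrays with knockout plasma thus lay below all wildtype arrays, as for Efna1. Efnb2 fell over the 3 knockout plasmas (-0.19 ± 0.04, adjusted p = 0.0141) and with ApoE-Stab1-KO plasma relative to wildtype plasma (-0.21 ± 0.04, adjusted p = 0.0378). Plxnd1 fell over the 3 knockout plasmas as well (-0.18 ± 0.04, adjusted p = 0.0235). A list of 49 further guidance genes, such as coreceptors and the relay proteins inside the cell, had 48 members measured, these 2 included. In it, 0 rose and 2 fell over the 3 knockout plasmas (Efnb2 and Plxnd1), where 0.291% of all genes fell. No other gene of the list passed there. Both were put on the list because the set leaves them out, and earlier results of these data were known, so the count tests nothing about the list. With ApoE-Stab1-KO plasma relative to wildtype plasma 0 rose and 1 fell (Efnb2), where 0.19% of all genes fell, and 0 passed in each of the other 5 comparisons.

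**Figure D2:**
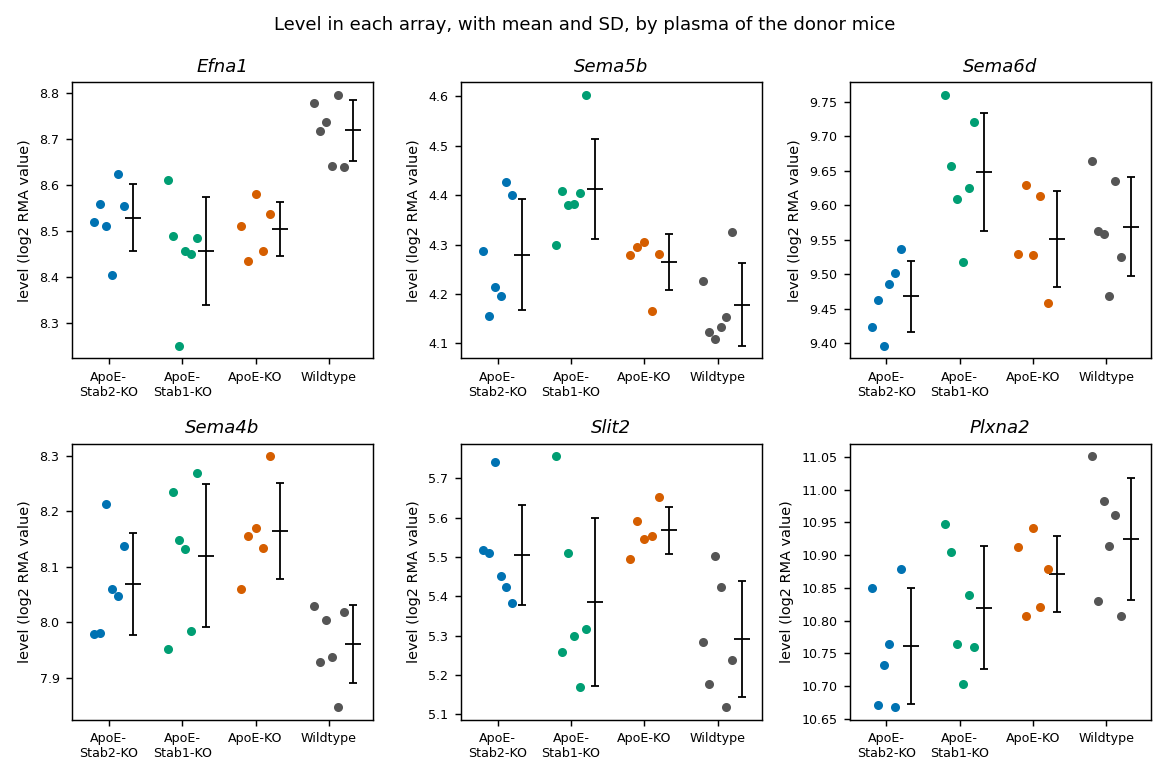
Level (log2 RMA value) in each array of the 6 guidance genes with the smallest F-test p, by plasma group, with mean and SD at the right of each group; each panel has its own axis. For Efna1 all 17 arrays with knockout plasma (8.25 to 8.62) lie below the 6 with wildtype plasma (8.64 to 8.80), and in each of the other 5 panels some arrays with knockout plasma lie within the range of wildtype plasma.

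The semaphorins of classes 4 to 7, mostly transmembrane ligands of plexins, held 3 of the 6 genes with the smallest F-test p but no call. Sema4b had a lowest level of 7.98, a median of 8.05 and a highest of 8.21 with ApoE-Stab2-KO plasma, and 7.95, 8.14 and 8.27 with ApoE-Stab1-KO plasma. With ApoE-KO plasma its 5 arrays gave 8.06, 8.16, 8.17, 8.13 and 8.30, against 7.85, 7.97 and 8.03 with wildtype plasma. The ApoE-KO arrays thus lay above all wildtype arrays, whereas the ApoE-Stab1-KO and ApoE-Stab2-KO arrays overlapped them. The Sema4b difference was 0.20 ± 0.06 for ApoE-KO minus wildtype (adjusted p = 0.155) and 0.16 ± 0.05 over the 3 knockout plasmas (adjusted p = 0.151). Sema4c, whose product binds plexin-B2, had wildtype arrays that differed from each other by little (10.49 ± 0.01, SD). With ApoE-KO plasma its levels were 10.42, 10.36, 10.26, 10.45 and 10.29, all below wildtype, with a difference of -0.13 ± 0.05 (adjusted p = 0.255).

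Sema5b, a transmembrane semaphorin with thrombospondin repeats, came closest to a call after Efna1. Its lowest level, median and highest level were 4.16, 4.25 and 4.43 with ApoE-Stab2-KO plasma and 4.30, 4.39 and 4.60 with ApoE-Stab1-KO plasma. With ApoE-KO plasma the arrays gave 4.28, 4.30, 4.30, 4.17 and 4.28, and with wildtype plasma the values were 4.11, 4.14 and 4.33. Of the 6 arrays with ApoE-Stab1-KO plasma, the lowest lay within the wildtype range, and ApoE-Stab1-KO minus wildtype was 0.23 ± 0.05 (adjusted p = 0.0583). Without ApoE-Stab1-KO replicate 1 (adjusted p = 0.0396) or wildtype replicate 6 (0.0408) Sema5b passed. The gene lay just above the olfactory receptor percentile. Sema5a, its paralogue, was dim, with ApoE-KO arrays of 3.68 to 3.76 above wildtype arrays of 3.47 to 3.61 (0.17 ± 0.07, adjusted p = 0.315).

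Sema6d, a transmembrane ligand of plexin-A1, had the smallest p of the set between the plasmas of both Stabilin double knockouts. Its levels were 9.40 at the lowest, 9.47 at the median and 9.54 at the highest with ApoE-Stab2-KO plasma, against 9.52, 9.64 and 9.76 with ApoE-Stab1-KO plasma. The groups overlapped slightly, and ApoE-Stab2-KO minus ApoE-Stab1-KO was -0.18 ± 0.05 (unadjusted p = 0.000615, adjusted p = 0.12). With ApoE-KO plasma Sema6d averaged 9.55 ± 0.07 and with wildtype plasma 9.57 ± 0.07. Sema6a, a ligand of plexin-A2 and plexin-A4, stayed between 8.95 and 9.03 and Sema6b between 9.27 and 9.38 in group means. Sema6c had levels of 3.92 to 4.30 with ApoE-Stab2-KO plasma and 4.19 to 4.38 with ApoE-KO plasma (-0.16 ± 0.06, adjusted p = 0.472).

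Sema7a, held at the membrane by a lipid anchor, had 5.39 ± 0.17 with ApoE-Stab2-KO plasma, 5.30 ± 0.28 with ApoE-Stab1-KO plasma, 5.13 ± 0.18 with ApoE-KO plasma and 5.42 ± 0.15 with wildtype plasma. Its difference was 0.26 ± 0.11 for ApoE-Stab2-KO minus ApoE-KO (adjusted p = 0.552) and -0.29 ± 0.11 for ApoE-KO minus wildtype (adjusted p = 0.337), with overlapping arrays in both. These comparisons share the ApoE-KO arrays. Sema4f, a dim gene, had a difference of -0.15 ± 0.05 for ApoE-Stab2-KO minus ApoE-Stab1-KO (adjusted p = 0.313). Sema4d, the ligand of plexin-B1, lay between 4.17 and 4.24, and Sema4a and Sema4g were dim.

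The plexins, which take up semaphorin signals, had 0 calls in every comparison, and 3 of the 8 (Plxnb1, Plxnb3 and Plxnc1) were dim. Plxna2, a receptor of semaphorins of classes 3 and 6, averaged 10.76 ± 0.09 with ApoE-Stab2-KO plasma, 10.82 ± 0.09 with ApoE-Stab1-KO plasma, 10.87 ± 0.06 with ApoE-KO plasma and 10.92 ± 0.09 with wildtype plasma. ApoE-Stab2-KO minus wildtype was -0.16 ± 0.05 (adjusted p = 0.308), with arrays of 10.67 to 10.88 against 10.81 to 11.05. Plxnb2 averaged 9.71 ± 0.04 with ApoE-Stab2-KO plasma, 9.60 ± 0.08 with ApoE-Stab1-KO plasma, 9.71 ± 0.07 with ApoE-KO plasma and 9.66 ± 0.11 with wildtype plasma. Neither ApoE-Stab2-KO minus ApoE-Stab1-KO (0.12 ± 0.05, adjusted p = 0.372) nor ApoE-Stab1-KO minus ApoE-KO (-0.11 ± 0.05, adjusted p = 0.864) passed for Plxnb2. The group means of Plxna1 spanned 9.16 to 9.23 and those of Plxna4 6.79 to 6.94.

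Slit2, a secreted ligand of Robo receptors, was higher in unadjusted terms with 2 of the 3 knockout plasmas and had no call. It had a lowest level of 5.38, a median of 5.48 and a highest of 5.74 with ApoE-Stab2-KO plasma and 5.17, 5.31 and 5.76 with ApoE-Stab1-KO plasma. The ApoE-KO arrays gave 5.50, 5.59, 5.54, 5.55 and 5.65, against 5.12, 5.26 and 5.50 with wildtype plasma. Slit2 thus varied little among ApoE-KO arrays and widely among ApoE-Stab1-KO arrays, and the difference was 0.28 ± 0.09 for ApoE-KO minus wildtype (adjusted p = 0.186) and 0.21 ± 0.08 for ApoE-Stab2-KO minus wildtype (adjusted p = 0.448). ApoE-Stab1-KO minus ApoE-KO was -0.18 ± 0.09 (adjusted p = 0.887). Slit3 had group means of 4.75 to 4.92 and Slit1 was dim.

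Of the Robo genes Robo1, Robo2 and Robo3, none passed in any test. Robo1 and Robo2, neighbours on chromosome 16, had group means of 3.11 to 3.21 and of 3.01 to 3.12, and both were dim. Robo2 had the smallest F-test p of the 3 (0.0887, adjusted p = 0.505), with a difference of -0.11 ± 0.05 for ApoE-Stab2-KO minus ApoE-Stab1-KO (adjusted p = 0.38). Robo3, a divergent member known from commissural axons in mice, had group means of 4.43 to 4.62 and no call. Robo4, the endothelial Robo, belongs to the list of further guidance genes and had a mean level of 10.52 over all arrays, with no call.

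Among the netrins, Ntn3, a secreted netrin, had the largest differences of the set between knockout plasmas. Its lowest level, mean and highest level were 4.61, 4.97 and 5.31 with ApoE-Stab2-KO plasma and 4.61, 4.97 and 5.26 with ApoE-Stab1-KO plasma. The ApoE-KO arrays gave 4.74, 4.37, 4.48, 4.63 and 4.92, and with wildtype plasma the lowest, mean and highest were 4.72, 4.89 and 5.14. All groups overlapped, and Ntn3 arrays of 1 group lay up to 0.70 apart with ApoE-Stab2-KO plasma. The difference was 0.34 ± 0.12 for ApoE-Stab2-KO minus ApoE-KO (adjusted p = 0.432) and 0.35 ± 0.12 for ApoE-Stab1-KO minus ApoE-KO (adjusted p = 0.82), both against the same ApoE-KO arrays.

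Ntn1, the netrin of axon and vessel guidance, averaged 10.31 ± 0.07 with ApoE-Stab2-KO plasma, 10.25 ± 0.14 with ApoE-Stab1-KO plasma, 10.20 ± 0.12 with ApoE-KO plasma and 10.33 ± 0.07 with wildtype plasma, and its largest difference was -0.13 ± 0.06 for ApoE-KO minus wildtype (adjusted p = 0.493). Ntn4, a basement membrane netrin that binds laminin, had 5.67 ± 0.13 with ApoE-Stab2-KO plasma, 5.70 ± 0.36 with ApoE-Stab1-KO plasma, 5.75 ± 0.18 with ApoE-KO plasma and 5.49 ± 0.20 with wildtype plasma. Ntn5 and the lipid-anchored Ntng1 were dim, and Ntng2 had group means of 4.07 to 4.33.

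Of the Unc5 receptors, Unc5a, Unc5c and Unc5d were dim in all groups. Unc5b, the netrin receptor of endothelial tip cells, had a lowest level of 5.77, a median of 5.88 and a highest of 6.01 with ApoE-Stab2-KO plasma and 5.75, 5.95 and 6.36 with ApoE-Stab1-KO plasma. The ApoE-KO arrays gave 6.06, 6.15, 6.04, 6.10 and 6.06, and with wildtype plasma the values were 5.87, 6.04 and 6.30. All ApoE-Stab2-KO arrays lay below all ApoE-KO arrays, and the difference of -0.20 ± 0.08 did not pass (adjusted p = 0.541).

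**Figure D3:**
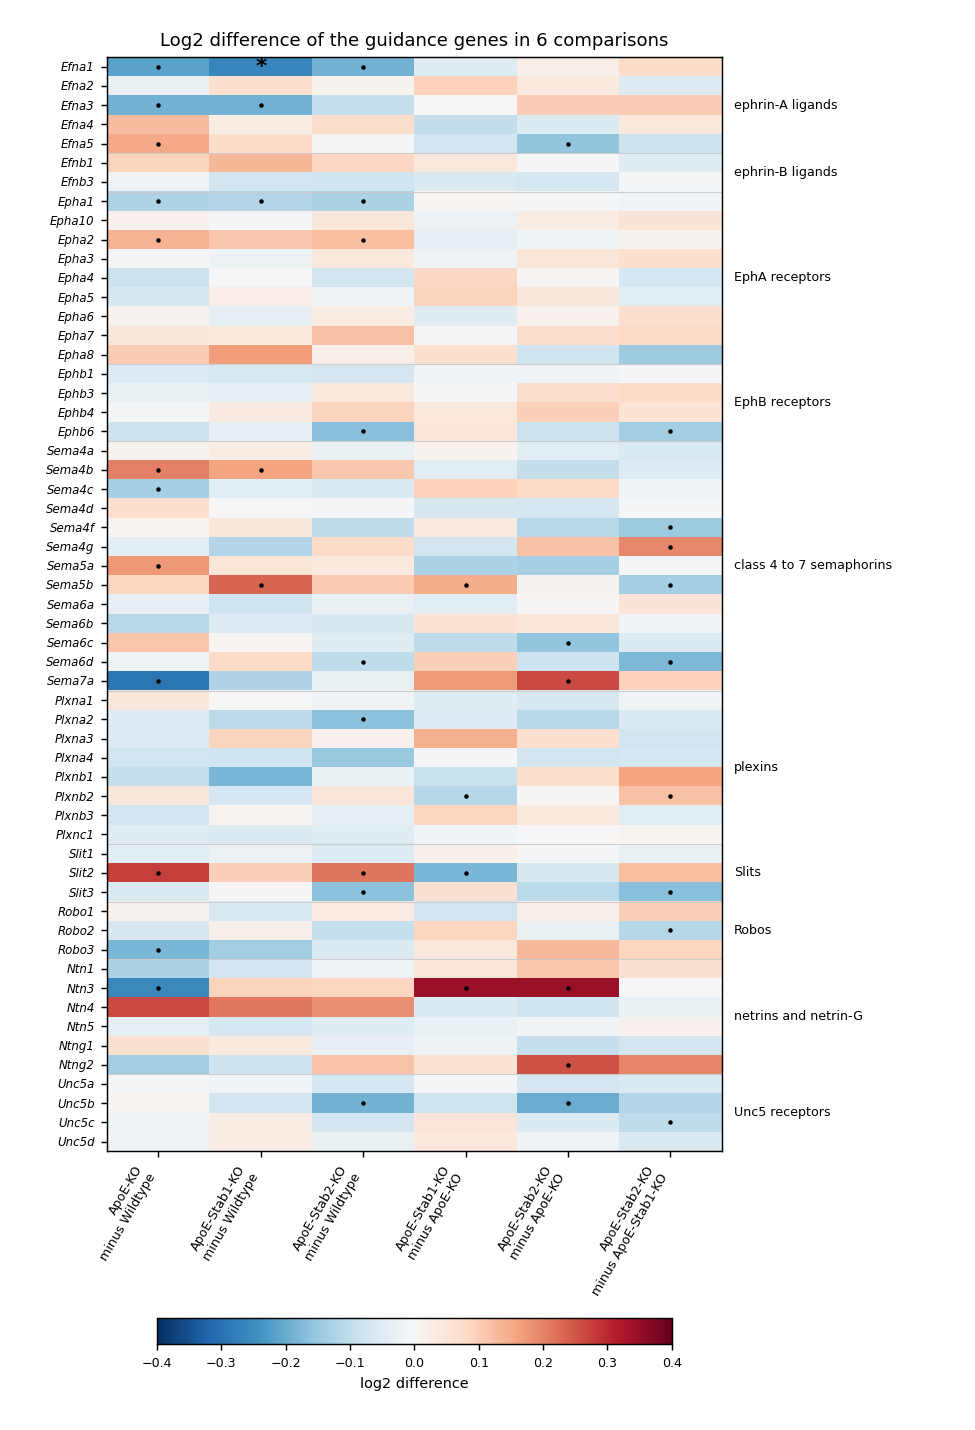
Log2 difference (colour; red means higher in the group named first) of the 57 guidance genes, by family, in the 6 pairwise comparisons. The star marks the 1 value with an adjusted p under 0.05, Efna1 for ApoE-Stab1-KO minus wildtype (-0.26), and dots mark unadjusted p under 0.05. Columns that share a group are not independent.

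Setting ApoE-KO beside wildtype plasma addresses how the blood plasma of ApoE-KO donors fed Western diet acts on aortic endothelial cells. There, 0 of the 57 guidance genes passed, against 0.53% of all genes, and the median difference was -0.02 against 0.00 over all genes. At an unadjusted p under 0.05, 5 were higher and 7 lower, against 5.41% and 5.12% of all genes, and the 12 together were 21.1% of the set, against 10.5% of all genes. The 5 were Slit2, Sema4b, Sema5a, Efna5 and Epha2, and the 7 were Sema7a, Ntn3, Efna1, Efna3, Robo3, Sema4c and Epha1. The arrays of both groups did not overlap for 4 guidance genes (Sema4b and Sema5a higher, Efna1 and Sema4c lower), against 1.98% of all genes, 1.08% higher and 0.891% lower.

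With ApoE-Stab1-KO plasma relative to wildtype plasma, 1 guidance gene passed and fell (Efna1) and 56 did not pass, where 0.364% of all genes passed and 0.19% passed and fell. Unadjusted, 5 of 57 (8.77%) passed, where 11.3% of all genes did, and Efna1 was the 1 gene whose arrays did not overlap, against 0.854% of all genes. With ApoE-Stab2-KO plasma relative to wildtype plasma 0 of 57 passed, where 0.178% of all genes did. Unadjusted, 2 were higher (Slit2 and Epha2) and 7 lower, against 4.27% and 4.22% of all genes. These 9 were 15.8% of the set, against 8.49% of all genes, and Efna1 was again the 1 gene without overlap, against 1.15% of all genes.

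Among knockout plasmas, the comparisons with ApoE-KO ask what the further loss of a Stabilin in the donor adds. The remaining comparison sets the plasmas of both Stabilin double knockouts against each other. For ApoE-Stab2-KO minus ApoE-Stab1-KO, 0 of 57 guidance genes passed, against 0.0486% of all genes, and 9 reached an unadjusted p under 0.05 (15.8%, against 11% of all genes), with Plxnb2 and Sema4g higher (5.2% of all genes) and 7 lower (5.78%). No guidance gene had arrays without overlap there, against 0.806% of all genes. For ApoE-Stab2-KO minus ApoE-KO, 0 of 57 passed, against 0.0243% of all genes, and 6 were under 0.05 unadjusted (10.5%, against 8.36%), with Unc5b the 1 gene without overlap, against 1.33% of all genes. For ApoE-Stab1-KO minus ApoE-KO, 0 of 57 passed, against 0.00405% of all genes, and 4 were under 0.05 unadjusted (7.02%, against 5.57%), namely Ntn3 and Sema5b higher and Plxnb2 and Slit2 lower, and 0 without overlap, against 0.368% of all genes. The intervals of the guidance genes reached no farther from 0 than 0.42 for ApoE-Stab2-KO minus ApoE-Stab1-KO and 0.60 for each of the others, the farthest being those of Ntng2 in the first and of Ntn3 in the others.

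**Figure D4:**
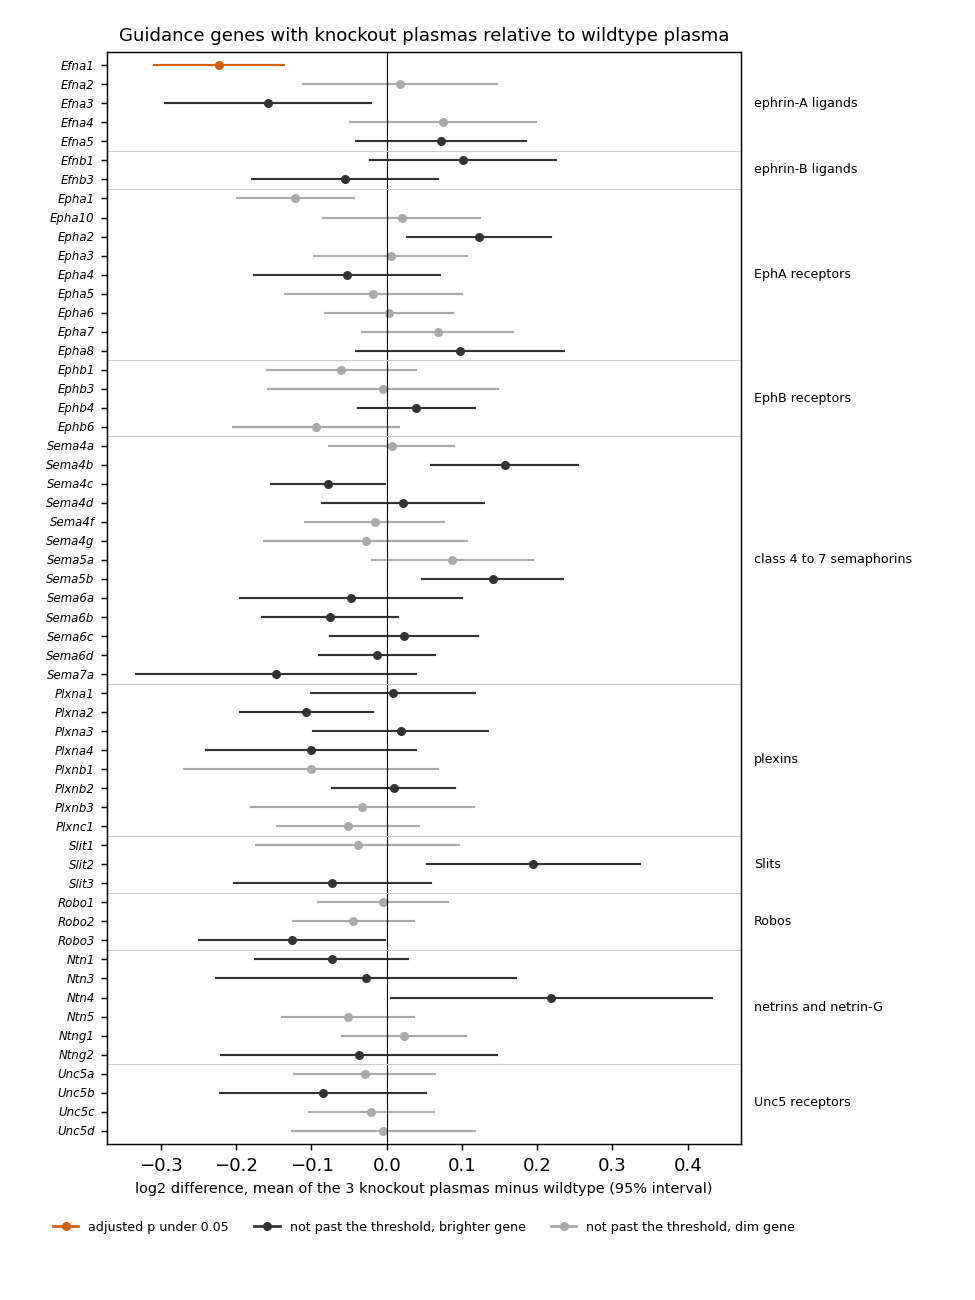
Log2 difference, mean of the 3 knockout plasmas minus wildtype plasma, with its 95% interval, for each of the 57 guidance genes by family. Efna1 (orange, -0.22) is the 1 gene past the threshold, black genes lie above and grey genes at or under the olfactory receptor percentile, and the interval reaching farthest is that of Ntn4 (0.43).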

How the data were processed

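The deposited values are log2 values that the authors made with RMA, per the submitters' processing notes. The sources used here give neither its version nor the annotation build. Of 25428 probe sets, 24705 had 1 gene symbol in the platform annotation, 0 had several and 723 had none. Where a symbol stood on several probe sets the brighter was kept, which left 24704 genes. Groups came from the labels.

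Group differences came from limma 3.58.1 run under R 4.3.3 (lmFit and eBayes without trend or robust settings, 1 mean per group, all 23 arrays in 1 fit, 19 residual and 4.19 prior degrees of freedom), in 6 pairwise comparisons, the mean of the 3 knockout groups minus wildtype, and the F-test. P-values were adjusted by Benjamini-Hochberg over the 24704 genes. Errors of differences are standard errors of this fit. The code of the fit was checked on simulated arrays with known changes and independent noise for each gene. That check does not bear on the calls given here. The guidance genes and the lists were chosen with earlier results of these data known.

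Named with full values were guidance genes past the threshold in any test, the 4 smallest p of each pairwise comparison, the 8 smallest of the F-test and the smallest of the F-test in each family, and, of the further list, genes past the threshold. Other genes are given by group means or counts, and those beyond the rule that carry a test value were added after their values were seen. Alternatives were repeated quantile normalization, median centring, genes above the median level, trend and robust eBayes, array weights, a replicate block, separate probe sets, only the arrays compared, and each array left out. The number of arrays limits the precision. RefSeq promoter windows come from GRCm38.p6, and all 57 genes matched it by gene ID. The plots used matplotlib 3.10.9 and Python 3.11.15.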

Additional observations from a re-analysis of the deposited data

Results flagged for a closer look

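In 3 of the 68 groups examined (17 named guidance genes in 4 plasma groups) 1 array stood far from the others by Dixon's gap, and chance flags about 1 group in 20. Ephb6 was at 3.63 in ApoE-KO replicate 5, while the other 4 arrays lay between 3.83 and 3.87. Sema5b was at 4.60 in ApoE-Stab1-KO replicate 6, against 4.30 to 4.41 in the others, and at 4.17 in ApoE-KO replicate 4, against 4.28 to 4.30 in the others. The arrays of Efna1 were not among those set apart.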

How the results depend on the processing

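Of 490 recomputed differences of the named guidance genes, 483 kept their direction and their side of the threshold, 2 lost the call, 5 gained one and 0 reversed. Of 177 recomputed counts of guidance genes past the threshold, 152 stayed within 1.5 times. For ApoE-KO minus wildtype, where 0 passed, 1 passed among genes above the median level and 1 with array weights, which was Efna1 both times (adjusted p = 0.0464 and 0.027). For ApoE-Stab1-KO minus wildtype, 0 passed with only the arrays of both groups (Efna1, 0.142), and 0 to 2 with 1 array left out. In the F-test, 0 to 1 passed with 1 array left out. Over the 3 knockout plasmas, Efna1 passed in all 7 other settings and with each array left out. Samples with the same replicate number did not deviate together (median r = 0.01 over 33 pairs, 1 of them over 0.1), and 6 of 23 arrays correlated best with their own number. With the replicate number as a block, 0 guidance genes passed the F-test (Efna1, 0.0679) and 2 passed for ApoE-Stab1-KO minus wildtype (Efna1, 0.0297, and Sema5b, 0.0263). For 26 dim genes the low signal limits what could be seen.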
